A study of Mus musculus with 12 samples.

Results

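The genes examined were 36 components of the synaptic vesicle release machinery, taken from a list of gene names and read from hippocampal RNA-seq libraries of *Fmr1* KO and WT mice. All 36 were found among the 55421 genes listed, and all 36 were among the 22592 genes with more than 20 reads over the 12 libraries, which were the genes tested. At a presynaptic terminal, vesicles filled with transmitter are tethered at the active zone, made ready for fusion by the assembly of the SNARE complex, and fused with the membrane when a calcium sensor binds calcium. The members fell into 5 roles: 9 proteins that cluster vesicles or sit in their membrane (*Syn1*, *Syn2*, *Syn3*, *Syp*, *Synpr*, *Sv2a*, *Sv2b*, *Sv2c* and *Slc17a7*), 10 calcium sensors and their relatives (*Syt1*, *Syt2*, *Syt3*, *Syt4*, *Syt5*, *Syt7*, *Syt11*, *Syt12*, *Doc2a* and *Doc2b*), 6 genes of the SNARE core and its recycling (*Vamp1*, *Vamp2*, *Snap25*, *Stx1a*, *Nsf* and *Snap91*), 7 SNARE regulators (*Cplx1*, *Cplx2*, *Cplx3*, *Stxbp5*, *Unc13a*, *Unc13b* and *Unc13c*) and 4 active zone genes (*Rab3a*, *Rims1*, *Rims2* and *Rims3*). *Fmr1* encodes FMRP, an RNA-binding protein whose loss causes fragile X syndrome, and transcripts of many presynaptic proteins are among those FMRP is known to bind.

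The 4 groups sequenced each held 3 hippocampal samples: WT mice injected with vehicle (WT-Veh), WT mice injected with Nutlin-3 (WT-Nut3), *Fmr1*-KO mice injected with vehicle (KO-Veh) and *Fmr1*-KO mice injected with Nutlin-3 (KO-Nut3). Nutlin-3 inhibits MDM2, the ubiquitin ligase that targets p53. Injections were intraperitoneal, at 2 months of age, and the hippocampi were dissected from 6-month-old animals. The mice were of a C57BL/6 background, the null allele is constitutive and so is carried by every cell of the KO animals, and the comparisons address whether a brief treatment left a lasting trace in the hippocampal transcriptome. Libraries carry the RH numbers of their labels. Values below are always given in the order RH2, RH5 and RH15 for WT-Veh and RH1, RH9 and RH14 for WT-Nut3. For KO-Veh the order is RH7, RH10 and RH16, and for KO-Nut3 it is RH6, RH8 and RH13. Between 17150820 and 20040482 reads per library were assigned to genes, and the members took 1.45% (KO-Nut3 RH6) to 1.67% (WT-Veh RH2) of them.

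*Fmr1* itself was lower in every KO library than in every WT library. In CPM (counts of a gene relative to library size, with TMM factors over the 12 libraries), *Fmr1* stood at 79.5, 75.3 and 77.7 CPM in WT-Veh, 75.2, 73.97 and 78.3 in WT-Nut3, 32.7, 32.5 and 37.3 in KO-Veh and 30.6, 28.5 and 35.7 in KO-Nut3. The genotypes did not overlap, and the difference between KO-Veh and WT-Veh passed the test (log2 fold change -1.18 ± 0.07 SE, adjusted *P* = 1.8e-06, edgeR quasi-likelihood test with Benjamini-Hochberg adjustment over all genes tested). Transcript of the gene therefore remained countable in the KO libraries, at about the level of 34.2 ± 2.72 CPM (SD, n = 3) in KO-Veh against 77.5 ± 2.11 CPM in WT-Veh. Markers of the labelled tissue were present in all 12 libraries: *Prox1*, a transcription factor of dentate granule neurons, ranged from 91.9 to 137 CPM, and *Fibcd1*, a marker of CA1 pyramidal neurons, from 95.7 to 199.8 CPM.

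One library stood apart from the other 11. In KO-Nut3 RH6, 25 of the 36 members lay outside the range of all other libraries, 8 above it and 17 below it. The same count was not made over all genes, so whether members stood out more than other genes was not tested. *Slc17a6*, the vesicular glutamate transporter of thalamic and other subcortical neurons, reached 113 CPM there against 8.42 to 22.2 elsewhere. Of 14 thalamic markers, 9 were highest and 1 lowest in that library, with a summed level of 577 CPM against 265 to 335 CPM in the others, and *Ptpn3* was the most abundant of them. *Tcf7l2* stood at 32.7 CPM (4.75 to 7.33 elsewhere), *Lef1* at 11.6 CPM (2.39 to 4.31) and *Zic1* at 76.8 CPM (8.51 to 51.1), whereas *Ramp3* was inside the range of the others at 2.61 CPM. The 7 CA1 markers summed to 492 CPM against 689 to 813 CPM, with 5 of the 7 lowest in KO-Nut3 RH6, and 6 of 12 dentate granule and 5 of 11 CA3 and CA2 markers were lowest there too, while 1 marker of each of these 2 lists was highest. Of 11 pan-neuronal markers, 3 were highest and 4 lowest there. Of the 12 interneuron markers 5 were highest and 6 lowest in that library, 6 of 10 oligodendrocyte markers were highest there and 4 of 8 microglial markers lowest. *Gad2*, which makes GABA, was at 275 CPM (147 to 181 elsewhere), while *Sst*, the peptide of one interneuron class, was at 113 CPM (171 to 211). In bulk tissue, fewer cells of a type and less RNA per cell cannot be told apart, and the part that tissue makeup had in any result below was not tested. For comparisons that use this library, counts of members and the values of named genes that moved by over 1.5 times are therefore also given without it.

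Other marker lists also differed between libraries. The 12 choroid plexus markers, led by *Ttr*, summed to 5179 CPM in KO-Nut3 RH13, 4838 in WT-Nut3 RH9, 3618 in KO-Nut3 RH6 and 390 in KO-Nut3 RH8, against 33 to 59 CPM in the other 8 libraries, so that the 4 highest were all Nutlin-3 libraries. The 10 oligodendrocyte markers, led by *Mbp*, were all lowest in WT-Veh RH2, where they summed to 3844 CPM against 4542 to 6566 CPM elsewhere. That library was also the one with the most members at their highest value, 17 of 36, a count that was not made over all genes. The 10 meningeal fibroblast markers were all highest in KO-Nut3 RH8, with a sum of 208 CPM against 26 to 141 CPM. The 11 pan-neuronal markers, led by *Snhg11*, summed to 5977 to 6365 CPM in the 6 Nutlin-3 libraries and to 6380 to 6633 CPM in the 6 vehicle libraries, without overlap, and the lowest sums were those of KO-Nut3 RH8 (5977 CPM) and RH13 (6027 CPM). Summed levels ranged from 1387 to 1526 CPM for 12 interneuron markers, from 1866 to 2387 CPM for 8 astrocyte markers and from 294 to 369 CPM for 8 microglial markers.

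The members covered a wide range of levels per exon length. Expressed as RPKM, the CPM divided by the kilobases of exon not shared with another gene, mean levels over the 12 libraries spanned 254-fold. The order was led by *Cplx2* (338 ± 26.5 RPKM, SD over 12 libraries), which encodes a complexin that clamps and promotes SNARE-driven fusion, followed by *Slc17a7* (269.9 ± 35.5), the vesicular glutamate transporter of hippocampal excitatory neurons, *Snap25* (244 ± 7.59) and *Vamp2* (238 ± 11.9), the target-membrane and vesicle SNAREs. *Rab3a*, *Cplx1*, *Syt1*, *Syt11*, *Syn1*, *Syp* and *Nsf* completed the 11 members above 100 RPKM, from 207 down to 134 RPKM. Between 97.9 and 10.1 RPKM lay 15 members, from *Sv2a* to *Stxbp5*. The 10 members under 10 RPKM were *Rims3*, *Rims2*, *Syt2*, *Sv2c*, *Syt12*, *Unc13b*, *Doc2a*, *Unc13c* (3.33 ± 2.17), *Cplx3* (1.35 ± 0.665) and *Syn3* (1.33 ± 0.184). Neighbours in this order mostly did not separate: the library ranges of 32 of 35 neighbouring pairs overlapped, and gaps were seen only between *Nsf* and *Sv2a*, between *Snap91* and *Stx1a* and between *Rims1* and *Syt3*.

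**Figure D1:**
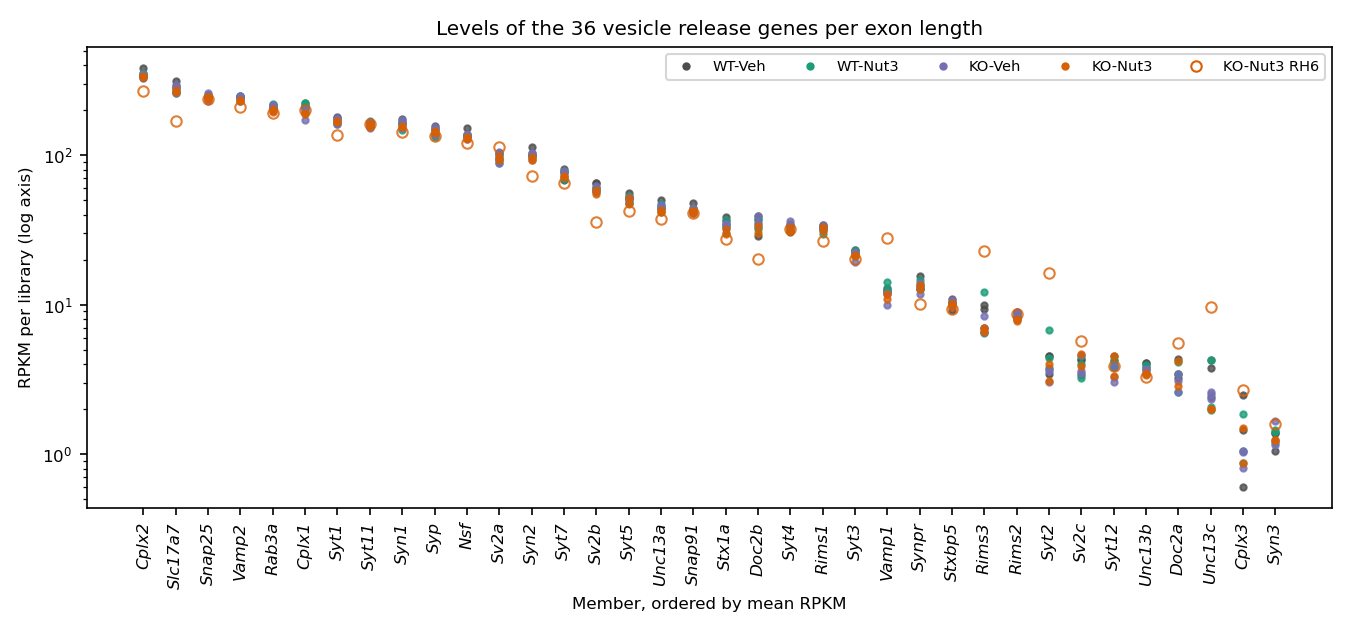
Level of each of the 36 members in each of the 12 libraries, in RPKM (log axis), with members ordered by mean level and points colored by group. Most members form tight columns, and the open circles of KO-Nut3 RH6 lie away from the column for *Syt2*, *Vamp1*, *Rims3* and *Unc13c* above and for *Slc17a7* and *Sv2b* below.

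For some members the level is uncertain, because reads that also touched another gene were not counted. The unstranded count was 23.1% of the sum of the 2 stranded counts for *Syn3*, whose exons meet those of *Timp3* on the other strand. It was 22.6% for *Doc2a*, which meets *Ino80e*. Reads fell evenly on both strands (50.1% to 50.4% in 1 direction), so that sum also holds reads of the overlapping gene. The shares therefore do not give the part of a member's own reads that was lost. The share was 51.4% for *Syp*, 58.8% for *Syt12* and 67.1% for *Syt4*, each overlapped by a transcript of the opposite strand. For the other 31 members it was 89.6% or more. *Syn1* exceeded *Syn2* and *Syn3* per length (160.1, 97.3 and 1.33 RPKM), *Unc13a* exceeded *Unc13b* and *Unc13c* (44.1, 3.66 and 3.33 RPKM), and *Vamp2* exceeded *Vamp1* (238 and 13.4 RPKM).

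Most members varied little between animals. The median SD of log2 CPM over the 12 libraries was 0.107 for the members against 0.240 for all genes tested, and 0.0794 against 0.223 when KO-Nut3 RH6 was left out. The genes tested were not matched to the members for read count. Whether members varied less than other genes of similar read count was therefore not tested. The highest value was at least 1.5 times the lowest in 14 members and at least 2 times in 6. *Snap25*, the most even of the abundant ones, stood at 1714, 1673 and 1656 CPM in WT-Veh, 1632, 1637 and 1716 in WT-Nut3, 1630.1, 1759 and 1574 in KO-Veh and 1615, 1617 and 1659 in KO-Nut3. *Cplx2* stood at 1887, 1683 and 1617 CPM in WT-Veh, 1716, 1669.9 and 1749.8 in WT-Nut3, 1732, 1676 and 1642 in KO-Veh and 1317, 1651 and 1672 in KO-Nut3, with all libraries but KO-Nut3 RH6 from 1617 to 1887 CPM.

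**Figure D2:**
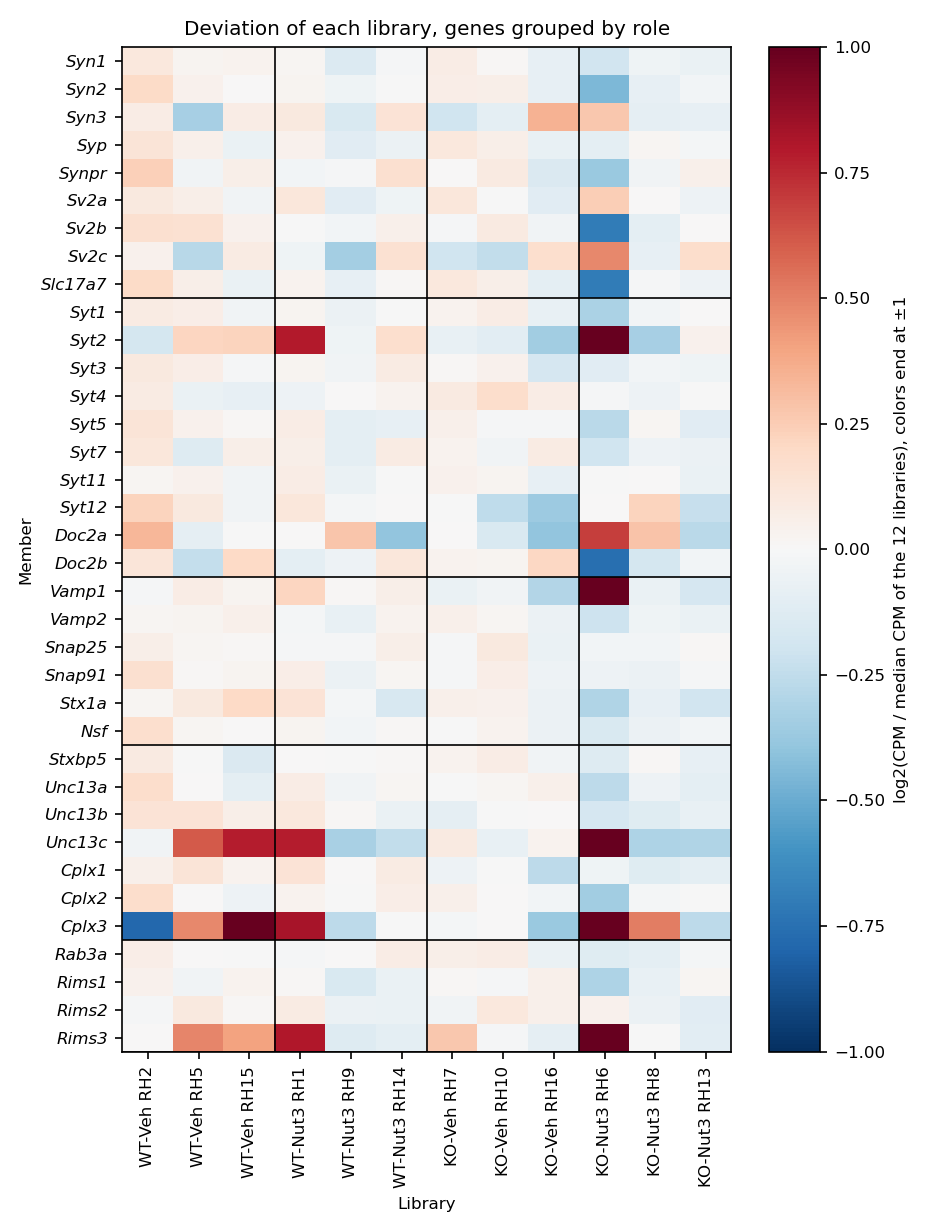
Deviation of each library (columns) from the median of the 12 libraries for each member (rows, grouped by role), as log2 of the CPM ratio, with red above and blue below the median and colors ending at 1 in either direction. KO-Nut3 RH6 is the column with the strongest colors in both directions, and WT-Nut3 RH1, WT-Veh RH5 and WT-Veh RH15 share its red cells for *Unc13c*, *Rims3* and *Cplx3*.

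The 8 members highest in KO-Nut3 RH6 were *Syt2*, *Vamp1*, *Rims3*, *Unc13c*, *Cplx3*, *Doc2a* and the vesicle glycoprotein genes *Sv2a* and *Sv2c*. *Syt2*, a fast calcium sensor used by many brainstem, thalamic and fast-spiking neurons, stood at 26.4, 34.5 and 34.7 CPM in WT-Veh, 51.7, 28.9 and 33.5 in WT-Nut3, 28.3, 27.6 and 23.4 in KO-Veh and 124, 23.6 and 30.6 in KO-Nut3. *Vamp1*, the vesicle SNARE that serves in place of *Vamp2* at many subcortical synapses, stood at 124, 132 and 128 CPM in WT-Veh, 145, 126 and 130.2 in WT-Nut3, 119, 122 and 102 in KO-Veh and 282, 119 and 111 in KO-Nut3. Both were more than 1.5 times as high in KO-Nut3 RH6 as in any other library. *Rims3*, a short active zone RIM protein, stood at 56.01, 78.7 and 73.96 CPM in WT-Veh, 97.5, 51.3 and 52.3 in WT-Nut3, 67.4, 55.5 and 52.6 in KO-Veh and 181, 55.96 and 52.01 in KO-Nut3. *Unc13c*, a vesicle priming factor best known from the cerebellum, stood at 21.3, 33.3 and 37.5 CPM in WT-Veh, 37.4, 17.3 and 18.3 in WT-Nut3, 23.1, 20.7 and 22.2 in KO-Veh and 85.1, 17.6 and 17.6 in KO-Nut3. WT-Nut3 RH1 was the next highest library for *Syt2*, *Vamp1* and *Rims3* and lay just under WT-Veh RH15 for *Unc13c*. *Slc17a6* was 22.2 CPM in WT-Nut3 RH1, its second highest value. *Cplx3*, a complexin of few forebrain neurons counted with only 30 to 142 reads per library, stood at 1.79, 4.31 and 7.31 CPM in WT-Veh, 5.48, 2.58 and 3.08 in WT-Nut3, 3.05, 3.10 and 2.39 in KO-Veh and 7.88, 4.41 and 2.58 in KO-Nut3, so that KO-Nut3 RH6 and WT-Veh RH15 were nearly equal. *Doc2a*, a calcium sensor of spontaneous and asynchronous release counted with 78 to 170 reads, stood at 7.35, 5.46 and 5.82 CPM in WT-Veh, 5.83, 7.05 and 4.43 in WT-Nut3, 5.83, 5.24 and 4.44 in KO-Veh and 9.43, 7.10 and 4.83 in KO-Nut3.

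The members lowest in KO-Nut3 RH6 included the markers of excitatory hippocampal terminals. *Slc17a7* stood at 1695, 1553 and 1420.4 CPM in WT-Veh, 1524, 1407 and 1503 in WT-Nut3, 1599.6, 1548 and 1393 in KO-Veh and 916, 1473 and 1434 in KO-Nut3. *Sv2b*, a vesicle glycoprotein enriched in glutamatergic terminals, stood at 542, 540.2 and 499 CPM in WT-Veh, 485, 477 and 502 in WT-Nut3, 483, 517 and 474 in KO-Veh and 299, 454 and 486 in KO-Nut3. In both genes the 11 other libraries kept to a narrow band, 1393 to 1695 and 454 to 542 CPM. *Doc2b*, a high-affinity calcium sensor, stood at 153, 119 and 161 CPM in WT-Veh, 131, 136 and 152 in WT-Nut3, 144, 143 and 162 in KO-Veh and 83.3, 124 and 138 in KO-Nut3, and *Syn2*, a synapsin that holds the reserve pool of vesicles, was at 502 CPM against 645 to 781 CPM elsewhere. *Syt1*, the main fast calcium sensor of the forebrain, was at 1136 CPM against 1339 to 1495 CPM, and *Synpr* at 95.2 CPM against 111 to 146 CPM. *Syn3*, the least abundant synapsin, was not among the members outside the range, at 14.6, 11.03 and 14.6 CPM in WT-Veh, 14.9, 12.5 and 15.3 in WT-Nut3, 12.1, 12.97 and 17.7 in KO-Veh and 16.7, 13.1 and 13.1 in KO-Nut3.

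**Figure D3:**
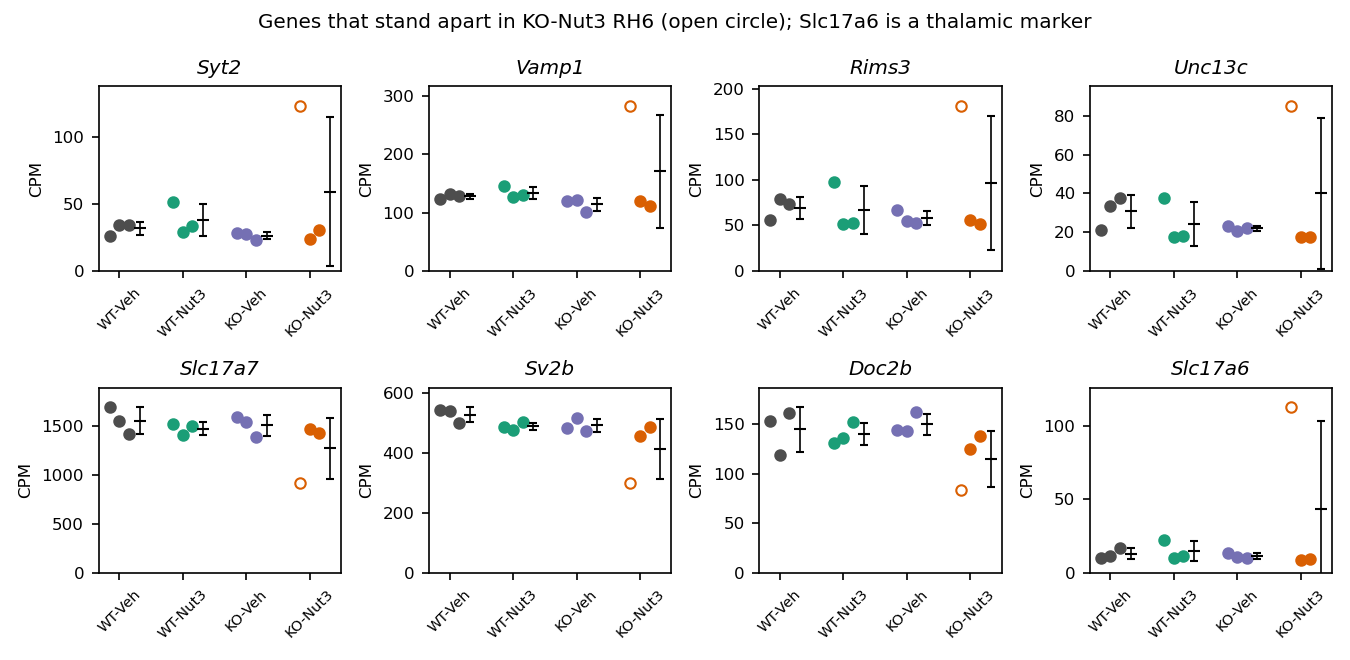
CPM in each library by group (points) with the group mean and SD (bars) for 7 members and the thalamic marker *Slc17a6*; the y axes start at 0 and KO-Nut3 RH6 is the open circle. The open circle lies above all other points for *Syt2*, *Vamp1*, *Rims3*, *Unc13c* and *Slc17a6* and below them for *Slc17a7*, *Sv2b* and *Doc2b*, and the SD of KO-Nut3 is set by it.

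The promoters of 2 members that were highest and 2 that were lowest in KO-Nut3 RH6 are shown so that the start regions of genes moving in opposite directions can be read side by side. They were chosen after their values were seen. Each is the 150 bases before the RefSeq start (GRCm38.p6), 5′ to 3′ on the gene's strand, with matches on either strand to the motifs searched in capitals, which in these 4 windows were the GC box GGGCGG and the TATA box TATAAA.
Syt2, chr1:134646462-134646611, plus strand: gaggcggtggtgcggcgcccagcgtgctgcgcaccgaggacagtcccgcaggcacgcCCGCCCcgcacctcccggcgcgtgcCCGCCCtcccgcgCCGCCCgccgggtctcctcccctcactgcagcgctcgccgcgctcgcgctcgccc
Vamp1, chr6:125215431-125215580, plus strand: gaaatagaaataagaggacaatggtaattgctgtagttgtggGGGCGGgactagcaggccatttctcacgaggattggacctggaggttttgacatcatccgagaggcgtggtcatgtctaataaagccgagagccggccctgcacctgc
Slc17a7, chr7:45163771-45163920, plus strand: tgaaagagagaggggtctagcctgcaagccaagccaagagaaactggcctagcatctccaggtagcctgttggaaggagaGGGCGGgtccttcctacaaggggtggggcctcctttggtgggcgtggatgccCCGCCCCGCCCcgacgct
Sv2b, chr7:75309263-75309412, minus strand: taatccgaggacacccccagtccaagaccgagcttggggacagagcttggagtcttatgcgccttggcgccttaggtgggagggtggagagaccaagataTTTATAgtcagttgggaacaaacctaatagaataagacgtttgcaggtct
The GC box was found 3 times in the *Syt2* window, 3 times in that of *Slc17a7* and 1 time in that of *Vamp1*, and the *Sv2b* window held a TATA box and no GC box. RefSeq promoters were matched for 26 of the 36 members. In the 250 bases before the start, the GC box was present in 20 of these 26 (76.9%) against 32.9% of all 27025 promoters, and TATAAA in 1 of 26 (3.85%) against 13%. The cyclic AMP response element TGACGTCA was in 1 of 26 (3.85%) against 1.62%, and the E-box CACGTG in 3 of 26 (11.5%) against 6.05%. These are matches of letters and describe the windows only.

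The first comparison asked what Nutlin-3 left behind in the KO hippocampus. Between KO-Nut3 and KO-Veh, 0 of 36 members passed an adjusted *P* of 0.05, where 0.199% of all genes tested did (45 genes). At an unadjusted *P* under 0.05 there were 6 members, 4 lower and 2 higher, against 7.60% of all genes. DESeq2 called 0 members (1.08% of all genes), and limma-voom also called 0 (0.0841%). By median, members were -0.09 on the log2 scale, with 25 of 36 lower in KO-Nut3, against a median of 0.00 and 49.2% lower over all genes.

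*Stx1a*, the target-membrane SNARE syntaxin, had the smallest *P* of the members. It stood at 90.9, 96.1 and 103 CPM in WT-Veh, 98.8, 88.7 and 80.5 in WT-Nut3, 92.9, 92.7 and 86.1 in KO-Veh and 72.8, 85.1 and 78.8 in KO-Nut3, so that the KO-Nut3 libraries lay below all KO-Veh and all WT-Veh libraries (log2 fold change -0.20 ± 0.07 SE, adjusted *P* = 0.502). *Doc2b* was also below every KO-Veh library in all 3 KO-Nut3 libraries (log2 fold change -0.38 ± 0.15 SE, adjusted *P* = 0.588). *Syt4*, an unusual synaptotagmin that does not bind calcium in the way of *Syt1*, stood at 114, 103 and 102 CPM in WT-Veh, 104, 108 and 110.0 in WT-Nut3, 114, 121 and 113 in KO-Veh and 107, 104 and 107 in KO-Nut3, and its KO-Veh values lay above all KO-Nut3 values (log2 fold change -0.14 ± 0.06 SE, adjusted *P* = 0.619). None of the 3 passed after adjustment. *Unc13a*, the main vesicle priming factor of forebrain excitatory synapses, had a log2 fold change of -0.16, and *Syt2* and *Cplx3* had 1.16 and 0.80.

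Without KO-Nut3 RH6, the size of several of these differences was altered. *Syt2* went from 1.16 to 0.04 and *Vamp1* from 0.58 to 0.01. *Rims3* turned from 0.72 to -0.12 and *Unc13c* from 0.86 to -0.32 (log2 fold change -0.32 ± 0.11 SE, adjusted *P* = 0.476). *Slc17a7* went from -0.25 to -0.06, *Sv2b* from -0.25 to -0.06 and *Doc2b* from -0.38 to -0.19. *Cplx3* went from 0.80 to 0.29 and *Unc13a* from -0.16 to -0.10. *Stx1a* (-0.15) and *Syt4* (-0.14) were closer to their values with all 6 libraries. Members called were again 0 (0.288% of all genes), and those under an unadjusted *P* of 0.05 numbered 4, all lower (*Unc13c*, *Doc2b*, *Syt4* and *Stx1a*), against 6.37% of all genes. The member median was -0.05, with 29 of 36 lower against 51.0% of all genes. Over the 6 leave-one-out fits (1 library omitted in turn), 24 to 29 members were lower, against 48.8% to 51.0% of all genes. Members under an unadjusted *P* of 0.05 numbered 0 to 12. The 0 came without KO-Veh RH7 (5.83% of all genes) or RH10 (4.67%), and the 12 without KO-Nut3 RH13 (9.10%).

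**Figure D4:**
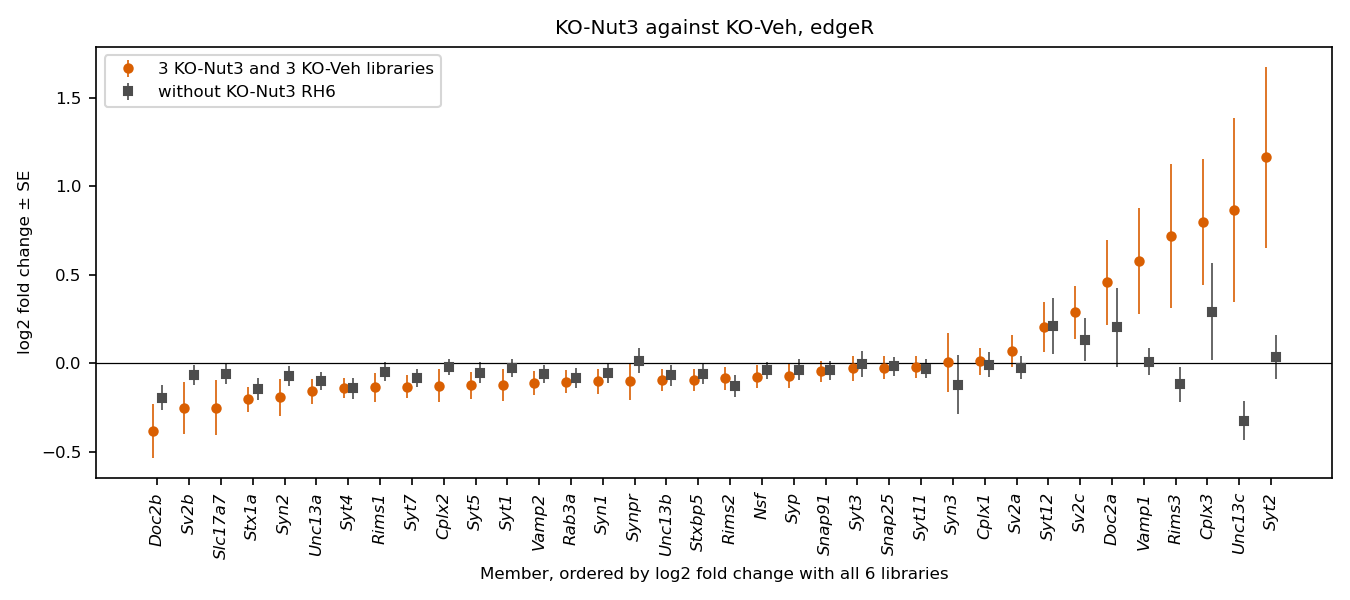
Log2 fold change of each member between KO-Nut3 and KO-Veh (edgeR), with its SE, for all 6 libraries (circles) and without KO-Nut3 RH6 (squares), ordered by the value with all 6 libraries. The 5 largest positive values, *Syt2*, *Unc13c*, *Cplx3*, *Rims3* and *Vamp1*, all fall when that library is left out, and *Unc13c* and *Rims3* change sign.

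The second comparison asked what loss of *Fmr1* did without treatment. Between KO-Veh and WT-Veh, 0 of 36 members were called (0.0177% of all genes, 4 genes), with DESeq2 also at 0 (0.0974%). At an unadjusted *P* under 0.05 there were 8 members, 7 lower and 1 higher, against 7.20% of all genes. The member median was -0.05, with 28 of 36 lower in KO-Veh, against 51.1% of all genes. Without WT-Veh RH2, 24 of 36 were lower with a median of -0.01, against 50.6% of all genes, and without KO-Veh RH16, 25 were lower with a median of -0.02. Over the 6 leave-one-out fits (1 library omitted in turn), the members lower numbered 24 to 33, against 49.6% to 51.2% of all genes. Those under an unadjusted *P* of 0.05 numbered 2 to 8, the 2 without WT-Veh RH5 (5.18% of all genes) and the 8 without WT-Veh RH2 (6.31%). *Unc13c* had the smallest *P* (log2 fold change -0.48 ± 0.16 SE, adjusted *P* = 0.610), although the KO-Veh libraries overlapped the WT-Veh range because WT-Veh RH2 was at 21.3 CPM. Without that library its log2 fold change was -0.69 with an adjusted *P* of 0.0465, the 1 member called in any fit that left out a library, where 5 of 22592 genes were called. Without WT-Veh RH15 it was -0.31.

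*Cplx1*, the complexin of fast synchronous synapses, stood at 465, 489 and 458 CPM in WT-Veh, 492, 449 and 474 in WT-Nut3, 433, 447 and 373 in KO-Veh and 436, 413 and 419 in KO-Nut3. All KO-Veh values lay below all WT-Veh values (log2 fold change -0.17 ± 0.07 SE, adjusted *P* = 0.643), and without KO-Veh RH16, the lowest of them, the log2 fold change was -0.09. *Unc13b*, the vesicle priming factor known as Munc13-2, stood at 91.9, 91.9 and 86.7 CPM in WT-Veh, 89.9, 84.1 and 79.6 in WT-Nut3, 78.2, 82.99 and 83.8 in KO-Veh and 74.2, 76.5 and 79.4 in KO-Nut3 and likewise had all KO-Veh values below all WT-Veh values (log2 fold change -0.14 ± 0.06 SE, adjusted *P* = 0.649). The others under an unadjusted *P* of 0.05 were *Syt12* (-0.29), *Syt2* (-0.27), *Vamp1* (-0.16), *Rims3* (-0.25) and, in the other direction, *Syt4* (0.13), all as log2 fold changes. Of these, *Vamp1* was at -0.08 without KO-Veh RH16, and *Rims3* at -0.38 without WT-Veh RH2 and -0.16 without WT-Veh RH5.

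The third comparison asked what Nutlin-3 left behind in WT mice. Between WT-Nut3 and WT-Veh, 0 of 36 members were called (0% of all genes by edgeR and 0% by DESeq2), and at an unadjusted *P* under 0.05 edgeR had 0 members against 3.17% of all genes, DESeq2 0 against 340 of 22592 genes and limma-voom 1 against 580 of 22592 genes. The median was -0.05, with 29 of 36 lower in WT-Nut3 against 49.9% of all genes. Without WT-Veh RH2, 23 of 36 were lower with a median of -0.01, and without WT-Nut3 RH9, 21 were lower with a median of -0.02, against 49.6% and 51.0% of all genes. Over the 6 leave-one-out fits (1 library omitted in turn), 0 to 5 members were under an unadjusted *P* of 0.05. The 0 came without WT-Veh RH2 (3.05% of all genes) or WT-Nut3 RH14 (3.01%), and the 5 without WT-Nut3 RH1 (5.13%). The smallest *P* belonged to *Sv2b* (log2 fold change -0.11 ± 0.06 SE, adjusted *P* = 0.998), *Unc13b* (log2 fold change -0.09) and *Syn1* (log2 fold change -0.09). *Syn1*, the most abundant synapsin per exon length, stood at 575, 543 and 548 CPM in WT-Veh, 542, 486 and 529.9 in WT-Nut3, 561, 537 and 503 in KO-Veh and 468, 519 and 509 in KO-Nut3, and its WT-Nut3 values lay just under its WT-Veh values. Without WT-Nut3 RH9 its log2 fold change was -0.05, and that of *Unc13b* was -0.05 without WT-Nut3 RH14.

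KO-Nut3 was also set against WT-Veh, which asks how far treated KO tissue was from untreated WT tissue. No member of 36 was called (0.00443% of all genes, 1 gene, and 0.983% by DESeq2, which also called 0 members). There were 6 members at an unadjusted *P* under 0.05, all lower in KO-Nut3, against 9.17% of all genes. *Unc13b* (log2 fold change -0.23 ± 0.06 SE, adjusted *P* = 0.261) and *Stx1a* (log2 fold change -0.29 ± 0.08 SE, adjusted *P* = 0.263) came first, and in both genes the KO-Nut3 and WT-Veh libraries did not overlap. *Cplx1* followed (log2 fold change -0.15 ± 0.06 SE, adjusted *P* = 0.504), then *Syn2* (-0.25), *Sv2b* (-0.35) and *Syn1* (-0.15). The median was -0.11 with 27 of 36 lower, against a median of 0.01 and 47.6% lower over all genes. Leaving out KO-Nut3 RH6 gave 35 of 36 lower and a median of -0.09, against 49.9% of all genes lower. Without it, 7 members were under an unadjusted *P* of 0.05, all lower, against 8.53% of all genes. *Syn2* (-0.14) and *Syn1* (-0.11) were no longer among them and *Sv2b* was at -0.17. The members higher in KO-Nut3 went from 9 to 1, and the 8 that changed sign were *Syt2* (0.90 with the library and -0.23 without it), *Unc13c* (0.39 and -0.81), *Rims3* (0.47 and -0.37), *Vamp1* (0.42 and -0.15), *Cplx3*, *Doc2a*, *Syn3* and *Sv2a*. The last 4 were positive with the library and at -0.37, -0.06, -0.04 and -0.06 without it. Omitting each library in turn gave 26 to 35 members lower, against 47.4% to 49.9% of all genes, and 3 to 9 under an unadjusted *P* of 0.05. The 3 came without WT-Veh RH2 (5.82% of all genes) or RH5 (7.15%), and the 9 without KO-Nut3 RH8 (9.74%) or RH13 (9.51%). This comparison shares WT-Veh with the KO-Veh and WT-Nut3 comparisons and KO-Nut3 with the first.

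The interaction, the test of a genotype-dependent Nutlin-3 effect, called 0 of 36 members (0% of all genes, and 0.00443% by DESeq2, which also called 0 members). At an unadjusted *P* under 0.05 there were 0 members by edgeR, DESeq2 and limma-voom, against 4.17% of all genes by edgeR. *Syt4* had the smallest *P* (log2 fold change -0.15 ± 0.08 SE, adjusted *P* = 0.994), followed by *Unc13c* (1.20, 95% interval -0.28 to 2.68) and *Doc2a* (0.56, 95% interval -0.15 to 1.27). The intervals of *Unc13c* and *Doc2a* spanned values on both sides of 0, and without KO-Nut3 RH6 *Unc13c* was at 0.01 and *Doc2a* at 0.30. Without that library there were again 0 members under this *P*, against 3.38% of all genes. The member median turned from -0.02 with 22 of 36 lower (48.7% of all genes) to 0.01 with 17 of 36 lower (51.5% of all genes). Omitting each of the 12 libraries in turn gave 17 to 27 members lower, against 47.8% to 51.5% of all genes. Members under this *P* then numbered 0 to 7, the 7 without KO-Nut3 RH13 (5.64% of all genes).

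Over both treatments, KO against WT called 0 of 36 members (0.00443% of all genes, 1 gene, which was *Fmr1*, and 0.190% by DESeq2, which also called 0). The 3 members at an unadjusted *P* under 0.05 were all lower in KO, against 8.16% of all genes. *Cplx1* was lower in all 6 KO libraries than in any of the 6 WT libraries (log2 fold change -0.17 ± 0.05 SE, adjusted *P* = 0.417), by a margin of less than 2 CPM between the nearest libraries. *Unc13b* (log2 fold change -0.14 ± 0.04 SE, adjusted *P* = 0.417) and *Stx1a* (log2 fold change -0.14 ± 0.06 SE, adjusted *P* = 0.535) overlapped between genotypes. The smallest adjusted *P* of any member by DESeq2 was 0.0613, in this comparison. Members were lower in 26 of 36 cases, with a median of -0.06 against 48.1% lower over all genes. Without KO-Nut3 RH6, 31 of 36 were lower, with a median of -0.04 against 50.6% lower over all genes, and 7 members were under an unadjusted *P* of 0.05, all lower, against 8.88% of all genes. The added members were *Sv2b* (-0.17 with the library and -0.08 without it) and 3 that changed sign, *Vamp1* (0.10 and -0.19), *Syt2* (0.20 and -0.37) and *Unc13c* (0.13 and -0.48). Omitting each of the 12 libraries in turn gave 25 to 31 members lower, against 47.7% to 50.6% of all genes. Members under this *P* numbered 2 to 7, the 2 without WT-Nut3 RH1 (6.03% of all genes) and the 7 without KO-Nut3 RH6 (8.88%).

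Over both genotypes, Nutlin-3 against vehicle called 0 of 36 members (0% of all genes, and 0.350% by DESeq2, which also called 0). There were 6 members at an unadjusted *P* under 0.05, 5 lower and 1 higher, against 7.29% of all genes. *Stx1a* (log2 fold change -0.16 ± 0.06 SE, adjusted *P* = 0.483), *Unc13b* (log2 fold change -0.09 ± 0.04 SE, adjusted *P* = 0.647) and *Syn1* (log2 fold change -0.10 ± 0.04 SE, adjusted *P* = 0.659) had the smallest *P*, all lower after Nutlin-3. *Syt5* (-0.11), *Syn2* (-0.14) and *Syt2* (0.71) were the others, and without KO-Nut3 RH6 *Syn2* was at -0.08 and *Syt2* at 0.16. Without that library the members under this *P* numbered 2, *Stx1a* and *Sv2b* (both lower), against 6.06% of all genes, and 31 of 36 members were lower against 50.5% of all genes. Omitting each of the 12 libraries in turn gave 1 to 9 members under this *P*. The 1 came without KO-Veh RH10 (5.40% of all genes) or WT-Veh RH2 (6.33%), and the 9 without KO-Nut3 RH13 (7.12%). The median was -0.06, with 25 of 36 members lower against 50.1% of all genes. The summed pan-neuronal markers were also lower in every Nutlin-3 library than in every vehicle library. The margin was narrow, with 6365 CPM in WT-Nut3 RH14 against 6380 CPM in KO-Veh RH7. In KO-Nut3 RH6, 3 of the 11 markers were highest and 4 lowest. The part of these markers in the differences above was not tested.

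**Figure D5:**
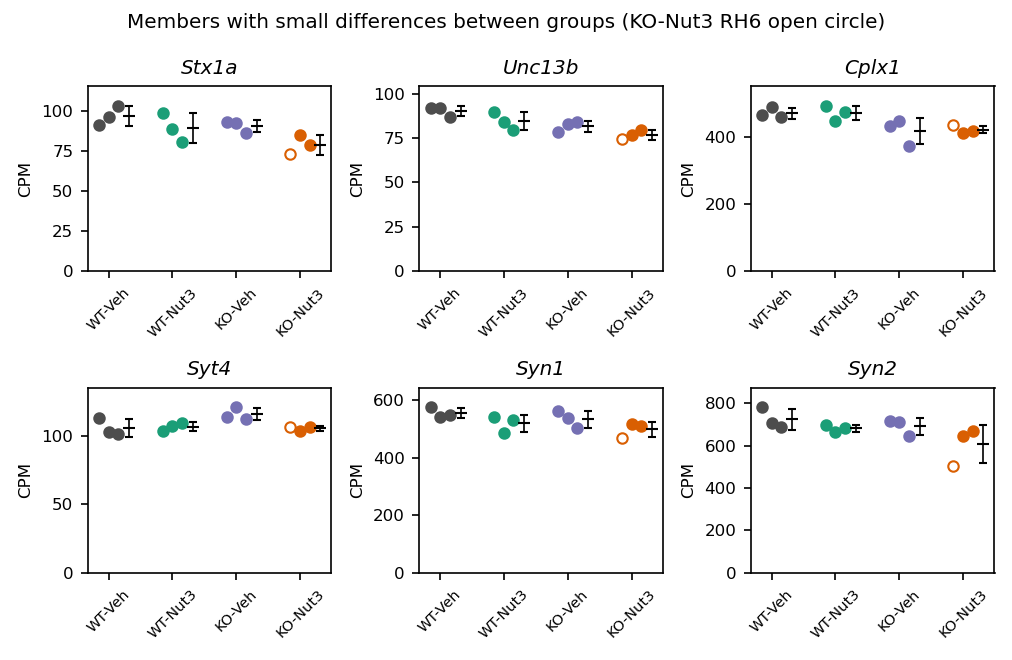
CPM in each library by group (points) with the group mean and SD (bars) for *Stx1a*, *Unc13b*, *Cplx1*, *Syt4*, *Syn1* and *Syn2*; the y axes start at 0 and KO-Nut3 RH6 is the open circle. Group differences are small beside the level of each gene, the *Cplx1* points of both KO groups lie below those of both WT groups, and the *Stx1a* points of KO-Nut3 lie below those of KO-Veh.

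Genes that work with the members were read from 4 further lists: 22 fusion partners and regulators, 21 active zone scaffold genes and Rab3 partners, 22 vesicle proteins and transmitter loading genes, of which 21 were matched and 20 tested, and 24 genes of vesicle endocytosis and recycling. None of the 87 tested passed an adjusted *P* of 0.05 by edgeR in any of the 7 comparisons. At an unadjusted *P* under 0.05, 7 of 87 were counted between KO-Nut3 and KO-Veh (7.60% of all genes), 3 between KO-Veh and WT-Veh (7.20%), 1 between WT-Nut3 and WT-Veh (3.17%), 12 between KO-Nut3 and WT-Veh (9.17%), 2 in the interaction (4.17%), 11 between KO and WT over both treatments (8.16%) and 6 between Nutlin-3 and vehicle over both genotypes (7.29%). Without KO-Nut3 RH6 the counts were 4 between KO-Nut3 and KO-Veh (6.37%), 9 between KO-Nut3 and WT-Veh (8.53%), 2 in the interaction (3.38%), 13 between KO and WT (8.88%) and 4 between Nutlin-3 and vehicle (6.06%), and again none passed after adjustment.

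*Ap2a2* had the smallest *P* of the 87 genes in several of these comparisons, and no group of genes was tested. *Ap2a2*, a subunit of the clathrin adaptor AP-2, stood at 300.4, 271 and 267 CPM in WT-Veh, 271, 239 and 261 in WT-Nut3, 253, 249 and 243 in KO-Veh and 203, 244 and 239 in KO-Nut3, below every WT-Veh library in all KO-Veh libraries (log2 fold change -0.17 ± 0.06 SE, adjusted *P* = 0.618), and was first also for KO-Nut3 against WT-Veh (log2 fold change -0.29 ± 0.08 SE, adjusted *P* = 0.338) and KO against WT (log2 fold change -0.17 ± 0.05 SE, adjusted *P* = 0.425). *Bsn*, which encodes the scaffold bassoon, was at 495 CPM in KO-Nut3 RH6 against 638 to 802 CPM elsewhere (log2 fold change -0.33 ± 0.11 SE, adjusted *P* = 0.387 for KO-Nut3 against WT-Veh, and -0.22 without that library). *Rimbp2*, which links RIM proteins to calcium channels, was lower in every KO-Nut3 library than in every KO-Veh library (log2 fold change -0.19 ± 0.07 SE, adjusted *P* = 0.455), and *Stx4a*, a syntaxin outside the synaptic core, was higher in every one (log2 fold change 0.22 ± 0.08 SE, adjusted *P* = 0.513). *Cplx4* had the smallest *P* in that comparison but was under 1 CPM in all 12 libraries. *Unc13d*, a Munc13 relative known from blood cells, was at or below 2.45 CPM in every library (log2 fold change 0.59 ± 0.18 SE, adjusted *P* = 0.436 for KO against WT). The other genes with the smallest *P* were *Cacna1b* for KO-Nut3 against WT-Veh, *Otof* for KO-Veh against WT-Veh, *Slc17a8*, *Sypl2* and *Ap2a1* for WT-Nut3 against WT-Veh, *Syt16* and *Syt9* in the interaction and *Ap2b1* for Nutlin-3 against vehicle, and the smallest adjusted *P* among them was 0.432. Without KO-Nut3 RH6, *Otof*, which encodes the calcium sensor otoferlin of inner hair cells, had the smallest *P* of the pathway genes in all 5 comparisons that used that library. It stood at 11.2, 11.3 and 13.4 CPM in WT-Veh, 11.6, 10.98 and 10.9 in WT-Nut3, 11.9, 7.61 and 7.98 in KO-Veh and 15.4, 4.41 and 5.11 in KO-Nut3. For KO-Nut3 against WT-Veh it went from -0.52 to -1.33 (log2 fold change -1.33 ± 0.17 SE, adjusted *P* = 0.0536), and for KO-Nut3 against KO-Veh from -0.14 to -0.95.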

How the data were processed

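The 12 libraries were made from poly(A)-selected hippocampal RNA, 1 per mouse. The authors mapped the reads to mm10 with STAR (version not given in the sources used here) and deposited raw read counts per gene for each library. The unstranded counts were used. The stranded counts served only to set the unstranded count of a member against their sum. The labels describe single reads and the study's methods paired ends. A deposited table of the whole series, with 12 columns whose names show no RH number, was not used. Gene names and exon lengths came from GENCODE M21 (55240 of 55421 listed identifiers matched), and promoters from RefSeq (GRCm38.p6).

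Genes with more than 20 counts over 12 libraries were fitted with edgeR 4.0.16 (R 4.3.3, TMM factors, quasi-likelihood test, two-sided, Benjamini-Hochberg adjustment over 22592 genes, threshold 0.05). Pairwise comparisons used the 6 libraries of their groups, and the other 3 of the 7 comparisons used all 12. DESeq2 1.42.0, limma-voom (limma 3.58.1), other size factors and filters, robust dispersion and 1 fit over 12 libraries were alternatives. So were a term for the RH number (up to 8 or above) and fits that omitted 1 library at a time. The sample labels give no pairing of animals between groups, so litter was not taken into account. Members and lists were chosen with earlier results of these data known. Library values are given for members with the 3 smallest *P* in each comparison, the 3 most and 3 least abundant per length and the 3 with the widest spread, for Fmr1 and, chosen after their values were seen, for *Rims3* and *Vamp1*. Libraries of a group are separate animals by the study's methods. Depth was similar across libraries, and counts of *Cplx3*, *Doc2a* and *Syn3* were the lowest, which limits their precision.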

Additional observations from a re-analysis of the deposited data

How the results depend on the processing

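With 3 animals a group, small differences cannot be told from the spread between animals. The count of members called was 0 in all 7 comparisons with DESeq2, limma-voom, DESeq2 size factors, filterByExpr and robust dispersion. It was also 0 with the RH number as a term and, for pairwise comparisons, with 1 fit over 12 libraries. Without a filter on low counts, over 35930 genes, members called were 3 between KO-Nut3 and KO-Veh (*Syt2*, *Vamp1* and *Doc2b*, where 1.51% of all genes were called), 1 between KO-Veh and WT-Veh (*Unc13c*, 0.757%), 4 in the interaction (*Syt2*, *Vamp1*, *Rims3* and *Unc13c*, 0.810%) and 3 between Nutlin-3 and vehicle over both genotypes (*Syt2*, *Vamp1* and *Doc2b*, 539 genes). Further pathway genes called without the filter numbered 1 between KO-Nut3 and KO-Veh, 1 in the interaction, 1 between KO and WT over both treatments (0.665% of all genes) and 2 between Nutlin-3 and vehicle. The cause was not tested. Leaving out 1 library at a time gave 0 to 1 members between KO-Veh and WT-Veh, the 1 being *Unc13c* without WT-Veh RH2, and 0 in the other comparisons. Without KO-Nut3 RH6, the log2 fold change between KO-Nut3 and KO-Veh was -0.12 for *Rims3* and -0.32 for *Unc13c*, against 0.72 and 0.86 with it, and leaving out any 1 library gave up to 1.02 for *Rims3* and 1.22 for *Unc13c*, both without KO-Nut3 RH13. These were among 27 differences of single members followed through every alternative, whose other values kept their direction and their side of the threshold in 415 cases and passed it in 6. Over all 36 members, leaving out KO-Nut3 RH6 changed the sign of 6 between KO-Nut3 and KO-Veh, 8 between KO-Nut3 and WT-Veh, 13 in the interaction, 9 for KO against WT and 6 for Nutlin-3 against vehicle. Over all genes, calls depended strongly on the setting: 45 between KO-Nut3 and KO-Veh (0 to 544), 4 between KO-Veh and WT-Veh (1 to 272), 0 between WT-Nut3 and WT-Veh (0 to 249), 1 between KO-Nut3 and WT-Veh (1 to 416), 0 in the interaction (0 to 291), 1 for KO against WT (1 to 239) and 0 for Nutlin-3 against vehicle (0 to 539). No paired analysis was made, because the sample labels give no litter or other pairing of animals.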
